A study of Saccharomyces cerevisiae with 10 samples.

Results

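The mRNA of [PSI+] yeast was compared with that of [psi-] yeast in rich medium (YPD), from 1 library per strain, which are the only 2 mRNA samples among the 10 of the series. Both are Saccharomyces cerevisiae cells of the 74D694 background, and the labels name no difference between them other than the prion state. The cultures stood at an OD600 of 0.6 to 0.8 at 30 °C, and both were treated with cycloheximide, a drug that stalls elongating ribosomes. The other 8 samples are ribosome footprints, of which 4 come from the same strains in YPD. The comparison covers every row of the count table with 10 or more reads in both mRNA libraries together, which is 5346 of 6608 rows. A further 354 rows had 1 to 9 reads and 908 had none. Of those 908, 715 had no read in any of the 8 mRNA and footprint columns. They include HXK1 and GLK1, which encode glucose-phosphorylating enzymes, and NOP58, which encodes a core snoRNA-binding protein, so a row without reads was not taken as a gene without transcripts.

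[PSI+] is the self-propagating aggregated form of Sup35, the release factor that works with Sup45 to end translation at stop codons, and its best known effect is increased reading through stop codons. Transcript levels in yeast follow growth and stress closely. Fast growth on glucose goes with abundant mRNA for ribosomal proteins and for the factors that assemble ribosomes. Stress and falling glucose go with mRNA for protective enzymes, storage carbohydrates and the use of other carbon sources, through regulators such as Msn2, Msn4, Yap1 and Adr1.

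The [PSI+] library held 5494957 reads assigned to genes and the [psi-] library 2480012. SCR1, the RNA component of the particle that targets secretory proteins, alone took 6.38% of the [PSI+] reads and 5.97% of the [psi-] reads, and the 10 rows with most reads took 19.7% and 14.4%. Of these 10 rows the strains shared 7, which besides SCR1 were RPR1, NME1, YEF3, PMA1, GPM1 and RPL41B. The ribosomal protein genes RPS9B, RPS12 and RPS31 were among the top 10 in [PSI+] cells only, and FBA1, YRO2 and ZEO1 in [psi-] cells only. YRO2 encodes a membrane protein of the opsin family and had 466 CPM (read counts scaled to the library total) in [PSI+] against 5214 CPM in [psi-] cells. RPS9B had 11640 CPM in [PSI+] against 1255 CPM in [psi-] cells.

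Values below are log2 ratios of CPM, [PSI+] over [psi-], relative to the median of all 5346 rows, which itself lay at -0.42 (1.34-fold lower in [PSI+]). With library totals alone, every value would be lower by that amount, so gene lists with a median between 0 and 0.42 are given without a direction. CPM is a share of a library, so fewer cells with a transcript and less of it per cell cannot be told apart. Brackets give 95% intervals from an exact conditional binomial calculation. They cover counting error only: each strain had 1 library, so the difference has no replicate check and was not tested. A row counts as higher or lower in [PSI+] when its value was 1 or more, or -1 or less, which is a 2-fold difference from the median.

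By that rule 1167 rows (21.8%) lay higher in [PSI+] and 1211 rows (22.7%) lay lower, while 2968 stayed within 2-fold. Of these calls 49.1% were on the higher side, against 29.6% with library totals and no centring, and 37.2% when the totals left out the 20 rows with most reads. The low side reached further. At 4-fold there were 373 rows (6.98%) on the high side and 510 (9.54%) on the low side. At 8-fold there were 104 (1.95%) and 206 (3.85%), and at 32-fold 8 and 45. The middle of the distribution was wide as well, with the 25th and 75th percentiles at -0.90 and 0.86. The counting interval lay wholly past 2-fold for 792 of the higher and 835 of the lower rows. Its median width was 0.29 on the log2 scale for the 1550 rows with most reads, 0.68 for the next 2856 rows (down to 100 reads), 1.76 for 30 to 99 reads and 3.52 for 10 to 29 reads.

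**Figure D1:**
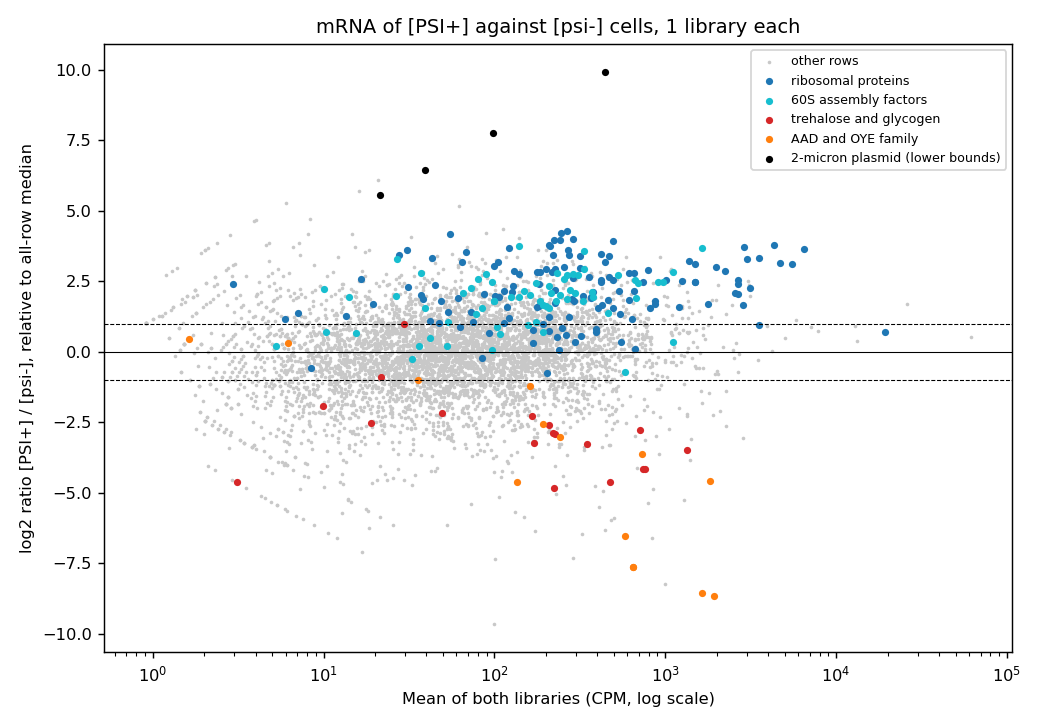
Each point is 1 of 5346 rows, with the mean CPM of both libraries on a log axis and the log2 ratio of [PSI+] over [psi-] relative to the all-row median. Dashed lines mark 2-fold, ribosomal protein genes (blue) centre on 2.15, trehalose and glycogen genes (red) on -2.90, and the 4 plasmid genes (black) are lower bounds because the [psi-] library had 0 of their reads.

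Among the 4411 rows with 100 or more reads, YLR108C had the smallest ratio, with 1 read in [PSI+] against 492 in [psi-] cells, which leaves its fold open between 146 and 32250. AAD4, OYE3, OSI1 and AAD6 came next. GRE2, a methylglyoxal reductase gene, had 52 reads in [PSI+] against 2876 in [psi-] cells, 91.6-fold lower [69.7 to 123]. ALD4, which encodes mitochondrial aldehyde dehydrogenase, had 30 against 1610 reads, 88.9-fold lower [62.0 to 132]. HSP26 encodes a chaperone that keeps unfolded proteins from aggregating, and its 5 reads in [PSI+] against 497 in [psi-] cells made it 165-fold lower [70.1 to 509]. ECM4, a glutathione transferase gene, had 62 against 2352 reads, 62.8-fold lower [48.8 to 82.2]. CYB2, which encodes the L-lactate dehydrogenase of the mitochondrial intermembrane space, had 6 against 259 reads, 71.5-fold lower [32.4 to 197].

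The 15 smallest ratios also held genes known mainly by their systematic names. YNL134C had 71 reads in [PSI+] against 4138 in [psi-] cells, YML131W 45 against 2187, and YLR460C 15 against 1431. AIM46 had 17 against 846 reads. YFL057C lies beside AAD6 and had 0 against 127 reads, at least 70.1-fold lower with the floor set at 3 reads in the library. Because these 15 rows were picked for 100 or more reads and the smallest ratios, nearly all their reads had to lie in [psi-].

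At the other end stood plasmid genes, unnamed rows and genes for ribosomes and RNA. The 4 genes of the 2-micron plasmid, a selfish circle that most laboratory yeast carry, had 236, 4869, 431 and 1084 reads in [PSI+] for R0010W, R0020C, R0030W and R0040C. All 4 had 0 reads in the [psi-] mRNA library, which allows up to 1.21 CPM. The [psi-] footprint libraries did hold them: R0020C had 317 and 338 footprint reads there and R0040C 409 and 401. The [psi-] mRNA and [psi-] footprint libraries thus differ for the plasmid. URA3, which encodes an enzyme of uracil synthesis, also differed between the readouts. Its mRNA had 71.0 CPM in [PSI+] against 15.7 CPM in [psi-] cells (2.59). Its footprints (316 reads against 562) stood at -0.64 relative to the footprint median, within 2-fold. Such differences were common: of 1129 rows higher in mRNA with footprint reads, 91 (8.06%) were higher in footprints. Whether the [psi-] mRNA and the [psi-] footprints came from the same isolate of the strain is not given in the labels, and a difference between isolates could not be told apart from the prion state in any ratio reported here.

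Among nuclear genes TRM11, which encodes the catalytic subunit of a tRNA guanine methyltransferase, had 660 reads in [PSI+] against 11 in [psi-] cells, 36.2-fold higher [20.1 to 72.9]. AAH1, adenine deaminase, had 1165 against 34 reads, 20.7-fold higher [14.7 to 30.0]. UTP23 (40S assembly), RPC17 (RNA polymerase III), ECM1 (60S export) and TCA17 (a vesicle tethering complex) were 16.2-fold to 18.3-fold higher. YOR072W-B had 225 against 2 reads and 0 footprint reads in either strain. YHR180W-A had 172 against 2 reads.

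The mRNA of ribosome production lay higher in [PSI+] for most of its lists. Of 138 ribosomal protein genes 117 were higher, 0 lower, and they took 17.4% of all reads in [PSI+] against 5.59% in [psi-] cells (exact binomial 95% intervals 17.3 to 17.4 and 5.57 to 5.62). The 19 single-copy genes had a median of 2.53, with 17 higher. RPS3 had 7854 CPM in [PSI+] against 756 CPM in [psi-] cells and RPL30 391 against 48.8 CPM. RPP0, the stalk protein gene, stood nearer the median with 430 against 354 CPM. The 119 duplicated genes had a median of 2.07, with 100 higher, and their members are less certain because near-identical copies can share reads. Small-subunit genes had a median of 2.44 over 56 members and large-subunit genes 1.96 over 82.

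The 3 ribosomal protein genes below the all-row median were members of duplicated pairs. RPS26A had 124 CPM in [PSI+] against 282 CPM in [psi-] cells (-0.76 [-0.91 to -0.61]). RPL15B had 5.64 against 11.3 CPM (-0.58 [-1.37 to 0.21]) and RPS14A 66.8 against 103 CPM (-0.20 [-0.44 to 0.03]). The intervals of RPL15B and RPS14A held the all-row median. At the top stood RPS22B (501 against 34.3 CPM), RPL7A (461 against 33.1 CPM) and RPL8A (103 against 7.66 CPM).

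Assembly factors followed the same side. Of 54 small-subunit processome and 40S assembly genes 49 were higher and 1 lower, with a median of 1.97. UTP23 had 166 CPM in [PSI+] against 12.1 CPM in [psi-] cells and DHR2, an RNA helicase gene, 31.5 against 3.63 CPM. RRP7 was the lower member, with 13.8 against 47.2 CPM. Of 66 genes for 60S assembly 52 were higher and 0 lower, again with a median of 1.97. NOP7 had 2955 CPM in [PSI+] against 309 CPM in [psi-] cells, DBP2 598 against 66.9 CPM and RRS1 254 against 25.4 CPM. REH1, a cytoplasmic factor of late 60S maturation, stood at -0.72. Of 11 snoRNP protein genes 8 were higher and 0 lower (median 1.70). CBF5, the pseudouridine synthase of box H/ACA particles, had 4953 CPM in [PSI+] against 1173 CPM in [psi-] cells.

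Polymerase genes followed in part. Of 13 RNA polymerase I genes 11 were higher and 0 lower (median 1.32, and 0.90 with library totals), with RPA135, the second largest subunit, at 1042 CPM in [PSI+] against 240 CPM in [psi-] cells. The subunits shared between polymerases gave 6 of 7 (median 1.77). Among 20 RNA polymerase III genes 7 were higher (median 0.48), and these ranged up to RPC17 at 4.06 [3.24 to 5.03], while TFC3, a TFIIIC subunit gene, stood at 0.03. Of 7 core RNA polymerase II genes 2 were higher and 1 lower (median 0.37). That lower gene was RPO21, the largest subunit, with 89.4 CPM in [PSI+] against 507 CPM in [psi-] cells.

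Genes that process and charge RNA were more mixed. Of 32 tRNA modification genes 22 were higher and 1 lower (median 1.27, and 0.85 with library totals). DUS1, a dihydrouridine synthase gene, had 105 CPM in [PSI+] against 17.3 CPM in [psi-] cells, and TRM1, a tRNA methyltransferase gene, 140 against 28.2 CPM. Of 19 exosome genes 9 were higher and 1 lower (median 0.82). TRF5 and MTR4, both of the TRAMP complex that feeds RNA to the nuclear exosome, stood at 3.38 and 2.71. SKI7, which links the cytoplasmic exosome to its helicase, stood at -1.90 on 12 against 27 reads. Of 20 cytosolic aminoacyl-tRNA synthetase genes 5 were higher, near the 21.8% of all rows, and 0 lower (median 0.64). They ranged from WRS1 at 2.01 to DPS1 at -0.69. Chaperones that receive new proteins had 8 of 20 higher and 0 lower (median 0.67), among them CCT5 (1411 against 603 CPM), a subunit of the ring-shaped chaperonin.

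**Figure D2:**
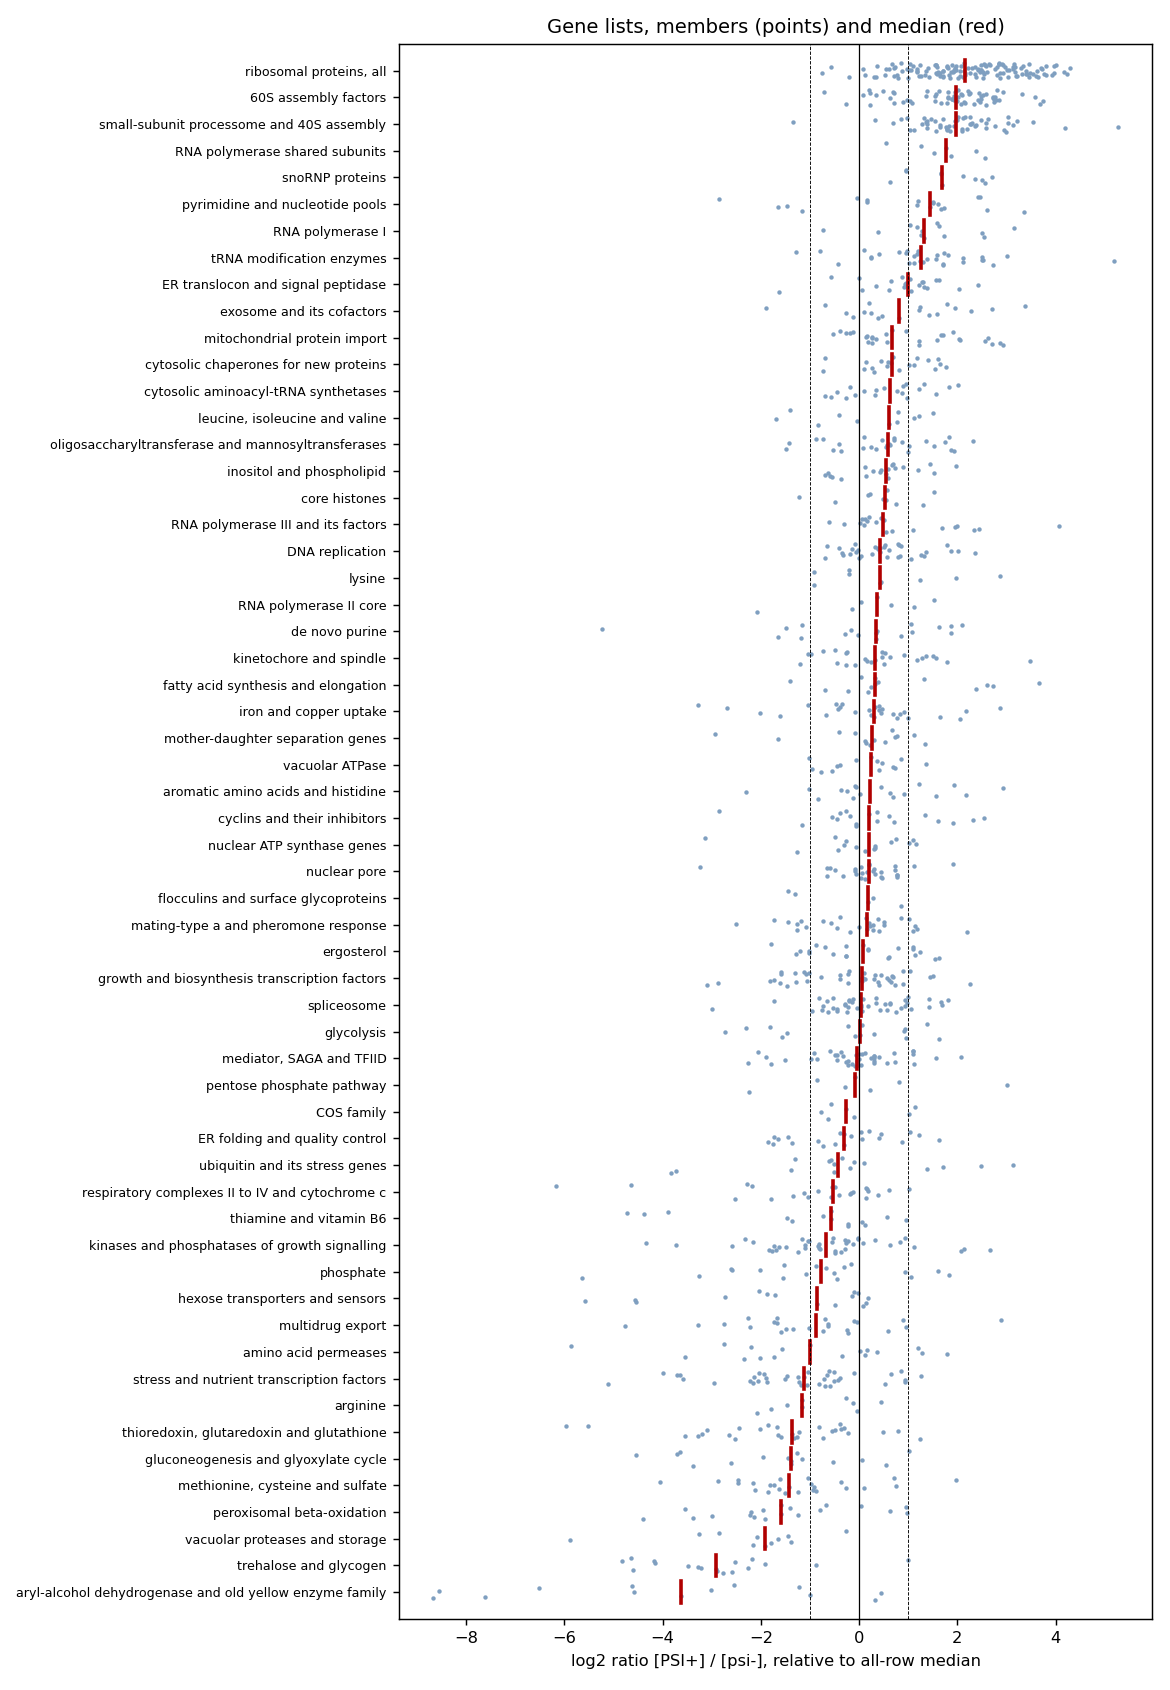
Each row is a gene list with 5 or more described members, each blue point a member and each red bar the list median, on the log2 ratio of [PSI+] over [psi-] relative to the all-row median. Dashed lines mark 2-fold. Ribosomal proteins (2.15) and the 40S and 60S assembly lists (1.97 each) lie at the top. The list of aryl-alcohol dehydrogenase and old yellow enzyme genes lies at the bottom (-3.62).

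Storage carbohydrate genes lay on the opposite side. Of 18 trehalose and glycogen genes 16 were lower in [PSI+] and 0 higher, with a median of -2.90, and their share of reads was 0.0786% in [PSI+] against 1.07% in [psi-] cells. GDB1, the glycogen debranching enzyme, had 11.5 CPM in [PSI+] against 434 CPM in [psi-] cells. TSL1, a trehalose synthase subunit, had 28.4 against 923 CPM, and PGM2, phosphoglucomutase, 59.3 against 1424 CPM. GLG1, which encodes a primer protein of glycogen synthesis, stood at -0.89. PIG1, a putative regulatory subunit gene, had 35.5 against 23.8 CPM, just short of 2-fold above the median.

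Redox genes lay mostly on the low side. In the list of aryl-alcohol dehydrogenase and old yellow enzyme genes 10 of 13 members were lower and 0 higher (median -3.62). This list also holds other genes, among them GRE3. AAD14 stood at -0.998 (107 reads in [PSI+] against 129 in [psi-] cells) and AAD3 at 0.32 [-0.59 to 1.28] (33 against 16). Near-identical copies in this list can exchange reads. Of 29 thioredoxin, glutaredoxin and glutathione genes 18 were lower and 1 higher (median -1.37). GTT2, a glutathione transferase gene, had 13.3 CPM in [PSI+] against 811 CPM in [psi-] cells. TRX1, cytosolic thioredoxin, was the higher member with 423 against 239 CPM. Of 24 multidrug export genes 12 were lower and 1 higher (median -0.88). FLR1, a transporter gene controlled by Yap1, had 20.9 CPM in [PSI+] against 759 CPM in [psi-] cells, whereas AQR1, an exporter of amino acids and short-chain acids, had 239 against 43.1 CPM. UBI4, the polyubiquitin gene, had 138 CPM in [PSI+] against 2636 CPM in [psi-] cells. In the ubiquitin list as a whole 4 of 16 were higher and 4 lower (median -0.43), near the 21.8% and 22.7% of all rows. Its higher members include RPS31, RPL40B and RPL40A, whose ubiquitin is fused to a ribosomal protein.

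Many activities in yeast are covered by a pair of genes, of which the first is typically used under stress or low glucose and the second during growth. Within a library the ratio of the 2 does not depend on scaling. Of 23 pairs 21 had reads for both genes. The ratio was lower in [PSI+] with an interval below 1 for 17 of the 21 (81%), higher for 1, and the interval held 1 for 3. These intervals cover counting error only, and the share for other pairs of genes was not computed. Some first genes, such as PGM2, TSA2 and OYE3, are also counted in the storage and redox lists above. The median shift was 4.81-fold over pairs with reads in both strains.

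Large shifts touched the pentose phosphate pathway. For the minor and major 6-phosphogluconate dehydrogenases, GND2 over GND1 was 0.0465 in [PSI+] and 0.498 in [psi-] cells, a 10.7-fold shift [8.06 to 14.4]. The lactonase pair SOL4 and SOL3 shifted 18.5-fold [5.58 to 96.2] and the transaldolase pair NQM1 and TAL1 11.9-fold [9.29 to 15.5]. TKL2, the minor transketolase, had 0 reads in [PSI+] against 72 in [psi-] cells, and the interval of its shift against TKL1 began at 17.2-fold. UBC5, a ubiquitin-conjugating enzyme gene paired with UBC4, had 0 against 24 reads, and its interval began at 7.01-fold.

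Other pairs shifted in the same direction. PGM2 over PGM1 was 1.72 in [PSI+] and 17.1 in [psi-] cells. OYE3 over OYE2 was 0.0588 in [PSI+] and 0.920 in [psi-] cells, although OYE2 alone already stood at -4.58. In glycerol synthesis GPD1 over GPD2 was 0.296 in [PSI+] and 2.31 in [psi-] cells, and GPP2 over GPP1 was 0.471 and 4.21. The cytochrome c pair CYC7 and CYC1 shifted 4.89-fold [4.02 to 5.95], the pyruvate kinase pair PYK2 and CDC19 4.06-fold [3.44 to 4.82], and the peroxidase pair TSA2 and TSA1 4.81-fold [2.45 to 10.5]. RNR3 over RNR1, the large subunits of ribonucleotide reductase, shifted 16.4-fold [6.45 to 49.2] on 6 against 26 reads of RNR3.

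For 3 pairs the interval of the shift held 1. HSP82 and HSC82, the inducible and constitutive Hsp90 genes, stood at -2.23 and -2.11, and their ratio was 0.209 in [PSI+] and 0.227 in [psi-] cells (shift 1.09-fold [0.990 to 1.20]). GSY2 and GSY1, the glycogen synthase genes, stood at -3.49 and -3.27 (shift 1.16-fold [0.998 to 1.34]). PDC6 over PDC1 rested on 24 and 10 reads of PDC6. The glutaredoxin pair went the other way: GRX1 over GRX2 was 4.22 in [PSI+] and 1.19 in [psi-] cells, a 3.54-fold shift [2.82 to 4.46], with GRX2 at -3.19 and GRX1 at -1.37. Pairs that are nearly identical in sequence, such as HSP82 and HSC82 or TDH1 and TDH3, can exchange reads, which limits their ratios.

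**Figure D3:**
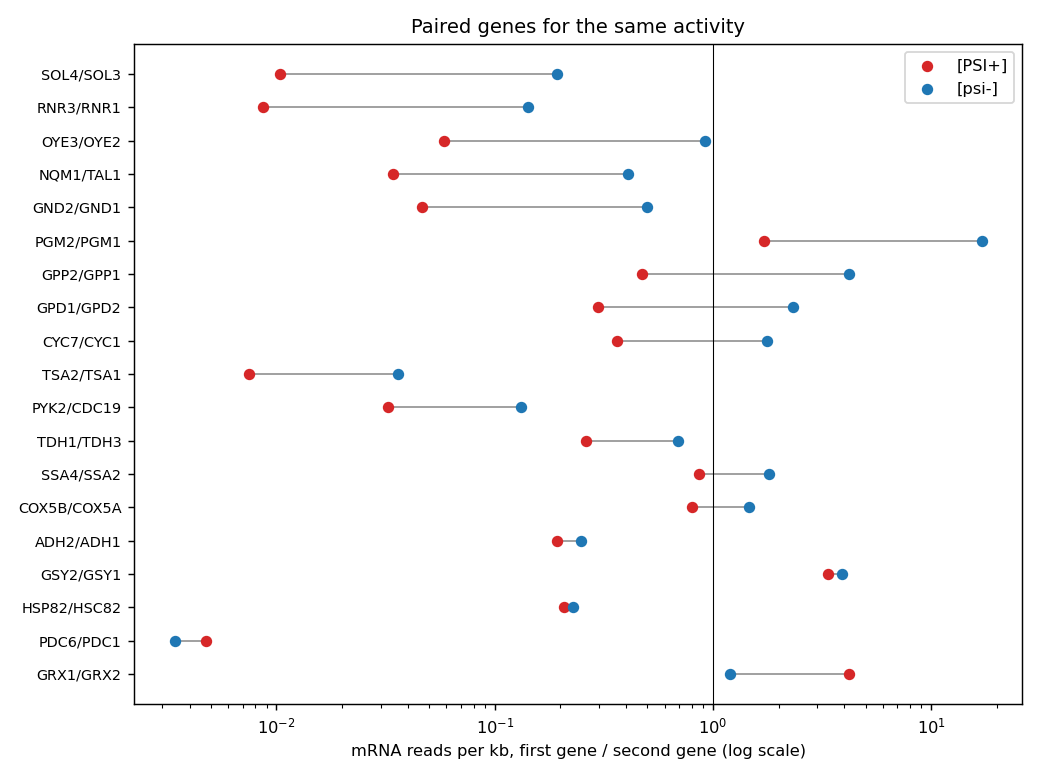
For 19 pairs with reads of both genes in both strains, red points give the ratio of the first gene to the second in [PSI+] and blue points in [psi-] cells, as mRNA reads per kilobase of gene on a log axis. Red lies left of blue for 17 pairs, farthest for SOL4 over SOL3 (0.0104 and 0.193), and right of it for GRX1 over GRX2 and PDC6 over PDC1.

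Genes of glucose-poor growth lay lower in [PSI+]. In the list of gluconeogenesis and glyoxylate cycle genes 11 of 15 were lower and 1 higher (median -1.39). This list also holds transport and regulator genes, among them its lowest named members, ADY2, CAT8 and ADR1. CAT8 and ADR1 are counted again among the transcription factors below. ADY2, an acetate transporter gene, had 1.27 CPM in [PSI+] against 39.9 CPM in [psi-] cells. ADH2 was the higher member, at 366 against 243 CPM. Of 19 peroxisomal beta-oxidation genes 13 were lower and 0 higher (median -1.59). POX1, acyl-CoA oxidase, had 0 against 38 reads, and CTA1, peroxisomal catalase, 9.28 against 98.4 CPM. Of 15 hexose transporter and sensor genes 7 were lower and 0 higher (median -0.87). The high-affinity or low-glucose transporters HXT6, HXT7 and HXT5 had 3, 10 and 8 reads in [PSI+] against 87, 142 and 113 in [psi-] cells, and the first 2 are near-identical. HXT1, a transporter for high glucose, stood at 0.07.

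Glycolysis split. Of 15 genes 2 were higher and 5 lower, with a median of 0.02, and the list took 3.51% of reads in [PSI+] and 3.55% in [psi-] cells. HXK2, the main hexokinase of growth on glucose, had 1458 CPM in [PSI+] against 631 CPM in [psi-] cells and ADH1 1904 against 980 CPM. TDH3, glyceraldehyde-3-phosphate dehydrogenase, had 214 CPM in [PSI+] against 1896 CPM in [psi-] cells, and the enolase genes ENO1 and ENO2 stood at -2.30 and -1.81. These 3 belong to families of near-identical copies. Of 7 pentose phosphate genes 1 was higher, RKI1 at 3.02, and 1 lower, ZWF1 at -2.23, which encodes the entry enzyme.

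Mitochondrial genes did not move as 1 group. In the list of complexes II to IV and cytochrome c 9 of 24 were lower and 1 higher (median -0.52). This list also holds other dehydrogenase genes, among them its 2 lowest named members, CYB2 and NDE2. SDH1, a succinate dehydrogenase subunit, had 17.7 CPM in [PSI+] against 136 CPM in [psi-] cells, and NDE2, an external NADH dehydrogenase, 0.728 against 24.2 CPM. ATP synthase genes had 3 of 16 higher and 2 lower (median 0.20). STF1, a regulator of the enzyme, stood at -3.15 and ATP1, a catalytic-core subunit gene, at -1.26. Protein import genes had 13 of 29 higher and 0 lower (median 0.67), among them the outer-membrane translocase genes TOM6 (85.0 against 14.9 CPM) and TOM20 (28.4 against 5.24 CPM).

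Amino acid synthesis differed by pathway. Among 25 methionine, cysteine and sulfate genes 15 were lower in [PSI+] and 1 higher (median -1.43). SUL2, a sulfate permease gene, had 48.0 CPM in [PSI+] against 471 CPM in [psi-] cells, while SAM1, which encodes S-adenosylmethionine synthetase, had 1459 against 496 CPM. Of 9 arginine genes 5 were lower and 0 higher (median -1.16), led by ARG1 at 226 against 1270 CPM. The footprint median of the same arginine genes lay on the other side, at 0.87, but not for every member. ARG1 and ARG3 stood at -0.46 and -0.95 in footprints, the side of their mRNA, and ARG7 and ARG2 at 2.55 and 1.59. Of 9 lysine genes 3 were higher and 0 lower (median 0.42), with LYS12 at 1803 against 330 CPM and LYS1 at -0.91. Of 11 branched-chain genes 3 were higher and 2 lower (median 0.60), with LEU9 at 121 CPM in [PSI+] against 57.3 CPM in [psi-] cells and ILV6 at 6.37 against 27.4 CPM. The 18 aromatic and histidine genes had 5 higher and 2 lower (median 0.23), with HIS1, the first enzyme of histidine synthesis, at 1836 against 322 CPM and TRP2 at 21.3 against 141 CPM.

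Nucleotide synthesis lay high for pyrimidines. Of 19 pyrimidine and nucleotide pool genes 12 were higher and 4 lower (median 1.45). URA1, dihydroorotate dehydrogenase, had 1648 CPM in [PSI+] against 214 CPM in [psi-] cells. URA8 and URA10, each the minor gene of a pair, stood at -1.64 and -1.48. Of 18 purine genes 6 were higher and 5 lower (median 0.35), beside 21.8% and 22.7% of all rows. IMD2, the inducible IMP dehydrogenase at the head of guanine synthesis, had 49.9 CPM in [PSI+] against 2523 CPM in [psi-] cells (-5.24 [-5.42 to -5.07]), whereas GUA1, the next enzyme, had 729 against 267 CPM. IMD2 and IMD3 (-1.48) are close copies.

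Lipid genes varied within each pathway. Of 23 ergosterol genes 6 were higher and 5 lower (median 0.09), near the 21.8% and 22.7% of all rows. They ranged from ERG3 at 1.63 to MVD1 at -1.80. Of 14 fatty acid genes 5 were higher and 1 lower (median 0.32). OLE1, the only fatty acid desaturase of yeast, had 4903 CPM in [PSI+] against 1267 CPM in [psi-] cells, and the elongase genes ELO2 and ELO3 stood at 2.72 and 2.61. FAA1, which activates imported fatty acids, stood at -1.40. Of 21 inositol and phospholipid genes 4 were higher, near the 21.8% of all rows, and 0 lower (median 0.55). Thiamine and vitamin B6 genes had 5 of 14 lower and 0 higher (median -0.58), led by the adjacent genes SNZ1 and SNO1 at -4.72 and -4.39.

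Amino acid and phosphate uptake genes were more often lower than higher in [PSI+]. Of 17 amino acid permease genes 8 were lower and 3 higher (median -0.996). PUT4, the proline permease, had 3 reads in [PSI+] against 105 in [psi-] cells, and TAT1, a permease for tyrosine and branched-chain amino acids, 470 against 182 CPM. Of 18 phosphate genes 8 were lower and 3 higher (median -0.78). PHO84, the high-affinity phosphate transporter, had 0 reads in [PSI+] against 90 in [psi-] cells, while the low-affinity transporter genes PHO90 and PHO87 stood at 1.84 and 1.06. Iron and copper genes had 5 of 28 higher and 5 lower (median 0.31), near the 21.8% and 22.7% of all rows. The copper chaperone gene ATX1 stood at 2.86 and FET3, the iron-oxidising partner of the permease Ftr1, at 2.05. HMX1, heme oxygenase, stood at -3.28.

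In the secretory pathway, 11 of 22 genes for entry into the endoplasmic reticulum were higher and 1 lower (median 0.99). SRP21 and SEC62 stood at 2.41 and 2.03, and SEC61 at -1.63 on 15 against 28 reads. Folding and quality control genes of the same compartment had 3 of 22 higher and 6 lower (median -0.31), with the oxidase gene ERO1 at 75 CPM in [PSI+] against 364 CPM in [psi-] cells. Glycosylation genes had 8 of 28 higher and 2 lower (median 0.59). Of 11 vacuolar protease and storage genes 10 were lower and 0 higher (median -1.93), led by APE1, an aminopeptidase delivered by selective autophagy, at 12.6 against 992 CPM. Of 15 genes for the vacuolar proton pump 1 was higher and 1 lower (median 0.24).

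Cell cycle and nuclear genes stayed closer to the median. Of 35 DNA replication genes 8 were higher and 0 lower (median 0.43), with CDC45 at 178 CPM in [PSI+] against 46.4 CPM in [psi-] cells. Of 10 histone genes 2 were higher and 1 lower (median 0.52). Of 27 kinetochore and spindle genes 7 were higher and 2 lower (median 0.33), and NNF1 stood at 3.47 [2.94 to 4.06]. The 19 cyclin and inhibitor genes had 5 higher and 2 lower (median 0.21). The shares of higher genes in the replication, kinetochore and cyclin lists were near the 21.8% of all rows. The S-phase cyclin gene CLB5 had 45.3 CPM in [PSI+] against 12.1 CPM in [psi-] cells, the mitotic cyclin gene CLB1 198 against 70.2 CPM, and the G1 cyclin gene CLN2 7.10 against 21.4 CPM. FAR1, which arrests the cycle on pheromone, stood at 2.54. Mother-daughter separation genes had 2 of 14 higher and 2 lower (median 0.26).

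Large nuclear machines gave few calls. The spliceosome had 6 of 45 higher and 2 lower (median 0.05), the nuclear pore 2 of 29 higher and 1 lower (median 0.19), and mediator, SAGA and TFIID 6 of 44 higher and 5 lower (median -0.04). PRP18, a second-step splicing factor gene, had 6 reads in [PSI+] against 29 in [psi-] cells, and POM33, a pore membrane protein gene, 6 against 34.

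Mating genes had calls on both sides, near the shares of all rows (21.8% higher and 22.7% lower). Of 29 genes of a-type mating and the pheromone response 5 were higher and 7 lower (median 0.17). MFA1, an a-factor gene, had 13.8 CPM in [PSI+] against 4.03 CPM in [psi-] cells and FUS2, a cell fusion gene, 2.91 against 22.2 CPM. Repeated families near chromosome ends were covered in part: 3 of 31 seripauperin and TIP1 family rows, 7 of 12 COS rows, 5 of 9 flocculin rows and 0 of 7 Y-prime helicase rows had 10 or more reads. Among these the median was -1.11 for the first, -0.27 for COS and 0.18 for flocculins, and members of these families share sequence.

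Regulators had calls too. Of 39 transcription factors of stress and nutrient use 22 were lower and 1 higher (median -1.13). CAT8 and ADR1, activators of genes for non-fermentable carbon, had 8.01 and 8.92 CPM in [PSI+] against 140 and 149 CPM in [psi-] cells. HSF1, the heat shock factor gene, had 10 against 47 reads (-2.96 [-4.11 to -1.96]), XBP1, a stress-induced repressor gene, 5 against 14, and CIN5, a gene of the Yap family, 1 against 21. HAP3, a subunit of the respiration activator, was the higher member at 1.27. Of 42 transcription factors of growth and biosynthesis 4 were higher and 14 lower (median 0.06). RAP1, which binds most ribosomal protein promoters, had 181 CPM in [PSI+] against 50.4 CPM in [psi-] cells, and CRF1, a corepressor of those genes, 7.64 against 87.1 CPM. STB3, a repressor of ribosome biogenesis genes, had 9 against 40 reads.

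Growth signalling genes included both sides. Of 42 kinase and phosphatase genes 17 were lower and 4 higher (median -0.68). RAS1, a small G protein gene upstream of adenylate cyclase, stood at 2.14 and LST8, a subunit of the TOR complexes, at 2.08. GPA2, the G protein of the glucose-sensing branch, had 20.6 CPM in [PSI+] against 165 CPM in [psi-] cells. REG2, a phosphatase regulator, had 5 against 61 reads and YAK1, a kinase that opposes growth, 4 against 32.

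The footprint libraries labelled with the same strain and prion states offer a second readout, here as reads summed per strain and set relative to their own median (0.10 on the log2 scale). Over 5200 rows with 10 or more reads in each kind of library, 650 (12.5%) were 2-fold lower and 329 (6.33%) 2-fold higher in [PSI+] footprints. Of the 1157 rows lower in mRNA 354 (30.6%) were lower in footprints and 47 were higher. Of the 1129 rows higher in mRNA 91 (8.06%) were higher in footprints and 67 (5.93%) were lower. The ribosome lists, high in mRNA, lay near the median in footprints: ribosomal proteins had medians of 2.15 in mRNA and -0.22 in footprints, 40S assembly genes 1.97 and 0.30, and 60S assembly genes 1.97 and 0.26. Trehalose and glycogen genes were low in both, at -2.90 and -2.02. The list of aryl-alcohol dehydrogenase and old yellow enzyme genes was low in both as well, at -3.62 and -4.32. Vacuolar protease genes had medians of -1.93 in mRNA and -0.07 in footprints. Among the 15 smallest mRNA ratios 14 were also 2-fold lower in footprints. The exception was ALD4, with 329 footprint reads in [PSI+] and 461 in [psi-] cells. Of the 14 largest mRNA ratios with footprint reads 5 were 2-fold higher in footprints, namely the 4 plasmid genes and YHR180W-A, and TCA17 and RPL8A were lower. TRM11 had 1169 footprint reads in [PSI+] and 1320 in [psi-] cells. The difference between the readouts was not tested here.

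**Figure D4:**
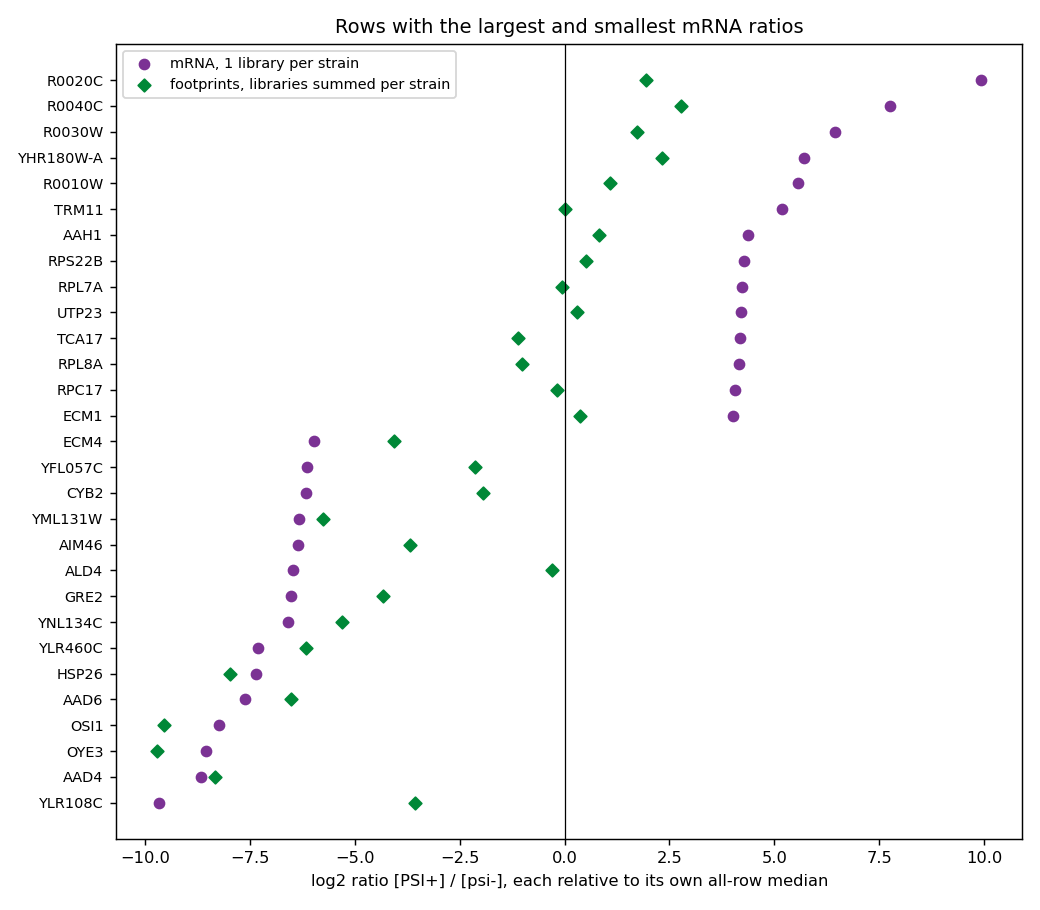
The 15 smallest and the 14 largest mRNA ratios with footprint reads, among rows with 100 or more mRNA reads, are given as purple circles, with the footprint ratio of the same row as a green diamond, each as log2 of [PSI+] over [psi-] relative to its own all-row median. Green follows purple at the low end except for ALD4, and at the high end 5 of 14 green points lie at 1 or more. R0010W, R0020C, R0030W and R0040C in mRNA are lower bounds and YFL057C in mRNA and footprints is an upper bound.

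Chromosome medians lay between -0.29 (chromosome VI, 97 genes) and 0.20 (chromosome VIII, 240 genes), within 2-fold of the all-row median. Gene length went with the ratio. Cut into 5 length classes, the shortest genes (78 to 701 bases) had a median of 0.40 and the longest (2154 to 14733 bases) -0.28. Without the lists of ribosome production, whose ribosomal protein members are short, these were 0.27 and -0.32. Across 5274 genes Spearman's rho between length and ratio was -0.18, and -0.17 over the 4887 outside those lists. These points share the same 2 libraries. Read level went with the ratio too: over 5 classes of mean CPM the median ran from -0.37 in the lowest to 0.33 in the highest. Without the ribosome-production lists these were -0.41 and 0.08. The part of length or read level in the list medians was not tested.

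**Figure D5:**
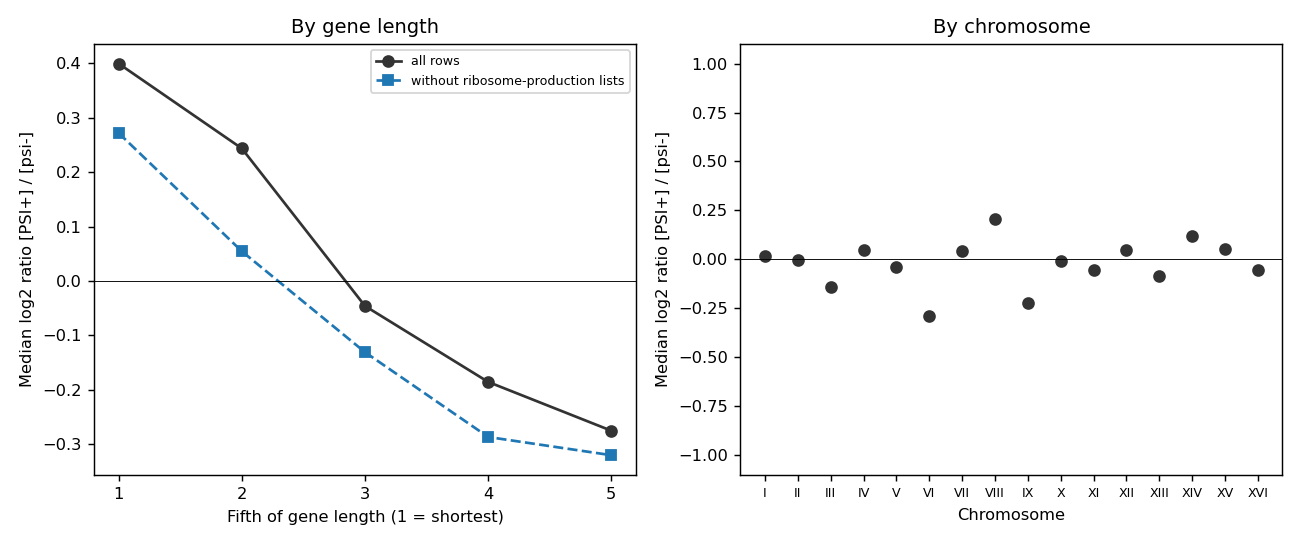
Left, the median log2 ratio of [PSI+] over [psi-] by length class, for all rows (grey circles) and without the ribosome-production lists (blue squares), descending from 0.40 to -0.28 and from 0.27 to -0.32. Right, the median by chromosome, between -0.29 and 0.20.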

How the data were processed

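Reads were mapped with Bowtie 0.12.7 to sacCer2 and counted with HTSeq 0.5.3p3, per the submitters' processing notes. The authors deposited whole-number counts per gene, made in intersection-nonempty mode per the deposited description, with no value below 1. The added 1 was subtracted. Libraries were made from total RNA with a directional kit, per the labels' protocols. Poly(A) selection and the strand setting of the counter are not stated there, so overlapping, antisense and near-identical genes are uncertain.

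Columns were matched to samples by name, and 0 were left without one. The 4 [PSI+] footprint columns are 2 biological and 2 technical replicates per the deposited description (2 pairs agreed within sampling noise) and were summed, as were the 2 [psi-] columns. CPM came from library totals. A 0 was set to a floor of 3 reads, 0.546 CPM in [PSI+] and 1.21 CPM in [psi-] mRNA. Intervals were exact conditional binomial (SciPy 1.17.1), and for pairs exact conditional odds ratios. The binomial intervals were tested on simulated counts that held counting error only, and the pair intervals were not. TMM and upper-quartile factors came from edgeR 4.0.16. Names came from NCBI RefSeq R64, which matched 5908 of 6608 rows. Gene length is the R64 gene span. Genes named were taken from the 15 largest and 15 smallest ratios among rows with 100 or more reads. They also came from up to 3 at each end of every list among members with 30 or more reads. Further sources were the pairs, the 10 rows with most reads, the 10 regulators at each end and rows with 0 against 100 or more reads. Not every gene chosen by these rules is named. NOP58, named as a row without reads, and the pairs of adjacent genes were chosen after their values were seen. The members and the 60 lists were chosen with earlier results of these data known. Promoter motifs were planned and are not analysed here. A further pair of genes is not reported here.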

Additional observations from a re-analysis of the deposited data

How the results depend on the processing

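No paired analysis was possible because the mRNA comparison has 1 library per strain, and leaving out a library was not possible for the same reason. The count of rows at least 2-fold higher in [PSI+] mRNA was 729 with library totals and no centring, against 1167 with centring. Across the other alternatives (TMM and upper-quartile factors, the added 1 kept, minimums of 100 reads or none, totals without the 20 rows with most reads) it was 887 to 1199. The count lower in [PSI+] was 929 to 1736 across all of them, against 1211. TMM factors put the median of all rows at -0.01 and upper-quartile factors at -0.12. Scaling moves every row by the same amount, so signs past 2-fold could not change. With library totals 18 of 64 list medians turned from positive to negative, among them RNA polymerase II core (0.37 to -0.05). RNA polymerase I (0.90) and tRNA modification (0.85) dropped under 2-fold, and 5 further medians passed 2-fold on the low side. No pair's shift changed side with the added 1 kept. Below 30 reads the interval had a median width of 3.52 on the log2 scale, so single genes there are weakly placed, and 1 library per strain leaves culture-to-culture spread unmeasured.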

Other observations

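Some adjacent genes both differed strongly. Of 4838 pairs of adjacent protein-coding genes with both members described, 14 had both at least 8-fold lower in [PSI+] and 1 had both at least 8-fold higher. Of all single rows 3.85% and 1.95% were that far lower and higher, which are shares of rows and not of pairs. Whether neighbours differ together more often than other rows was not tested. The lower pairs include HBN1 with FRM2, which encode nitroreductase-like proteins, at -5.25 (0 reads in [PSI+] against 69 in [psi-] cells, an upper bound) and -5.86, OSI1 with YKL070W at -8.24 and -6.24, and the arsenic resistance genes ARR2 and ARR3 at -3.55 and -5.03. ALD3 and ALD2, cytosolic aldehyde dehydrogenase genes, stood at -3.08 and -3.85. The higher pair was RPS14B with RPS22A, at 3.62 and 3.39. Across all 4838 pairs the values of neighbours correlated with r = 0.0879, as a description of genes that share 2 libraries, and some of these pairs are copies that can exchange reads, such as HXT7 with HXT6.

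Genes near chromosome ends lay lower in [PSI+]. Among the 10 outermost protein-coding genes at each end of the 16 chromosomes, 168 of 318 were described. Of these 35.7% were at least 2-fold lower and 13.1% at least 2-fold higher (median -0.46), against 22.1% and 21.9% of the 5102 other genes (median 0.01). The end genes had a median of 294 reads and the others 460 reads. The part of read depth or of shared sequence in this was not tested.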
